A study of Mus musculus with 2 samples.

Results

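Coinhibitory and costimulatory receptors of T cells were followed through 10 genes chosen by symbol, Pdcd1, Ctla4, Lag3, Tigit, Havcr2, Cd160, Btla, Cd200, Icos and Cd28. All 10 were found among the 27179 genes of the count table. The cells were those of ALL65, a T cell acute lymphoblastic leukaemia (T-ALL) of the mouse that arose with Vav-tTA and TRE-GFP-shIkaros, a pair of transgenes in which a Vav promoter, active in blood cells, drives the tTA activator of a short hairpin RNA against Ikaros linked to green fluorescent protein (GFP). Doxycycline (Dox) switches the hairpin off, so that Ikaros is made again from the cells' own gene. The first library came from GFPmid leukaemia cells of recipient mice given Dox for 3 days, and the second from GFPhigh cells of untreated recipient mice, both sorted from the spleen. Both groups carry the same leukaemia and both transgenes. Treatment and sort gate differ together, and their effects cannot be told apart. One primary leukaemia was studied, and other leukaemias were not analysed here. The comparison asks what becomes of these transcripts once Ikaros is restored in an established leukaemia.

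Each receptor of this kind adds a second signal to that of the T cell antigen receptor. CD28 and ICOS amplify it, largely through phosphoinositide 3-kinase, while PD-1 (the product of Pdcd1), CTLA-4, BTLA, LAG-3, TIGIT, TIM-3 (the product of Havcr2) and CD160 mostly restrain it, several of them by recruiting the phosphatases SHP-1 and SHP-2. CD200 is itself a ligand, which quietens cells that carry the CD200 receptor. In the thymus CD28 is present on developing T cells, whereas PD-1, CTLA-4 and ICOS are best known from activated, regulatory or exhausted T cells.

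With 1 library per group, no value has a replicate error, no test was possible and nothing replicates a difference. The series' design mentions 3 mice for each condition and 2 sequencing runs per RNA, but the table has 1 column per group. The Dox library held 14457475 counts and the untreated library 7477988. Levels are in CPM, read counts brought to a common library total, ratios are log2 of Dox over untreated, and the bounds beside them are 95% intervals that cover counting error only. As the library check, Ikzf1, the gene the hairpin targets, stood at 1455 CPM with Dox and 262 CPM without, a log2 ratio of 2.47 (2.41 to 2.54). T lineage identity was present in both libraries, since all 14 listed T lineage markers were past 1 CPM, with Cd3e at 244 CPM with Dox and 260 CPM without. In sorted bulk cells, fewer cells that express a gene and less RNA of it per cell cannot be told apart.

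Sequence around the start sites was compared for 4 members, since they pair a member that stood higher with one that did not, namely Pdcd1 with Ctla4 and Btla with Cd200. Ikaros binds DNA at sites built on GGGAA. Capitals mark every GGGAA on either strand (TTCCC where it lies on the opposite strand) in the RefSeq window from 250 bases before to 50 bases after a start site, build GRCm38.p6. The Pdcd1 window is chr1:94052504-94052803 on the minus strand, and the Ctla4 window chr1:60908775-60909074 on the plus strand. The Btla window is chr16:45224087-45224386 on the plus strand, and the Cd200 window chr16:45409004-45409303 on the minus strand. The Btla window lies past the gene start at 45223705, and the bases around that start were not searched.
Pdcd1: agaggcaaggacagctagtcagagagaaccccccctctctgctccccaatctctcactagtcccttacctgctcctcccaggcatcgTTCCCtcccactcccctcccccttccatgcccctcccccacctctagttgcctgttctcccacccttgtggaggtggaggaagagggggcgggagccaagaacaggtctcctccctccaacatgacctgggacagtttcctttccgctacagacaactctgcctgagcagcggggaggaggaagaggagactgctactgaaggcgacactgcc
Ctla4: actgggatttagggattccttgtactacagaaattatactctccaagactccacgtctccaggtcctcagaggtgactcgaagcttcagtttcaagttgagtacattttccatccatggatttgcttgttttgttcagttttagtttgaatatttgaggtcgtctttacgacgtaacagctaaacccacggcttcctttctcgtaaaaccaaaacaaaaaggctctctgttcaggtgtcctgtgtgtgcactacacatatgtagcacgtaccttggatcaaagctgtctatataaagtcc
Btla: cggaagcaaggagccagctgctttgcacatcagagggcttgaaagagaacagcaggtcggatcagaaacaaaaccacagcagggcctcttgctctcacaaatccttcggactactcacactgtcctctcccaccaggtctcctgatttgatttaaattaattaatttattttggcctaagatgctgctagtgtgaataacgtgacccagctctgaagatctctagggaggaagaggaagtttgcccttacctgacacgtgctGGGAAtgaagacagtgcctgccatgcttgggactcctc
Cd200: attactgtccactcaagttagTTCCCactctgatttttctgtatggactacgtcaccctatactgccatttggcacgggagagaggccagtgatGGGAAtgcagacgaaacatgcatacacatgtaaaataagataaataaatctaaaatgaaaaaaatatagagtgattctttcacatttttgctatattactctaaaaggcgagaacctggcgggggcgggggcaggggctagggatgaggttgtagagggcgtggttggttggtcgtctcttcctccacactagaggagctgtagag

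The Pdcd1 window held 1 match, the Ctla4 window 0, the Btla window 1 and the Cd200 window 2. RefSeq gave 8 windows for 7 members, the extra one being for Cd160. No window was at hand for Cd28, Icos and Lag3, so these were not searched. Of the 7 members 4 had a match, Cd160 being the other one, and of the 8 windows 5 had a match. Among all 32851 windows in that table, 62.7% held GGGAA. The longer TGGGAA, which contains GGGAA, was found for 3 of the 7 members, Cd160, Btla and Cd200. That was 3 of the 8 windows, against 25.6% of all windows. Matches therefore stood in windows of Pdcd1, Cd160 and Btla, which were higher with Dox, and of Cd200, which was not. The searched members without a match were Ctla4, Tigit and Havcr2, and Tigit and Havcr2 were next to absent. Matches say nothing of whether a factor is bound.

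In amount, the leukaemia's receptor transcripts were mostly those of the costimulatory genes, and the inhibitory set was uneven. Per kilobase of the gene length given in the table, Cd28 stood at 104 CPM per kilobase with Dox and 64.2 without. That was 52.8% of the summed level of all 10 members with Dox and 48.2% without. Icos followed at 31.8 CPM per kilobase with Dox and 19.8 without, and Pdcd1 at 20.4 with Dox and 14.1 without. Lag3 was much lower, at 2.35 CPM per kilobase with Dox and 1.84 without. Tigit and Havcr2 were next to absent.

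The order of levels per kilobase was almost the same in both libraries. With Dox it ran from Cd28 through Icos, Pdcd1, Ctla4 at 10.6 (9.38 to 11.8), Cd200 at 9.64 (8.62 to 10.8), Btla at 9.24 (8.38 to 10.2) and Cd160 at 8.43 (7.53 to 9.42) CPM per kilobase to Lag3. The counting intervals of each neighbouring pair from Ctla4 to Cd160 overlapped, so that neighbours among these 4 could not be ordered at this depth. Without Dox, Pdcd1 at 14.1 (12.3 to 16.2) and Ctla4 at 12.1 (10.4 to 14.05) CPM per kilobase overlapped, as did Ctla4 and Cd200, the last at 9.36 (7.996 to 10.9). Cd160 at 6.18 (5.14 to 7.36) and Btla at 5.53 (4.64 to 6.54) CPM per kilobase came below them without Dox, in the reverse of their order with Dox. Both of those orders between Btla and Cd160 lay within counting error.

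**Figure D1:**
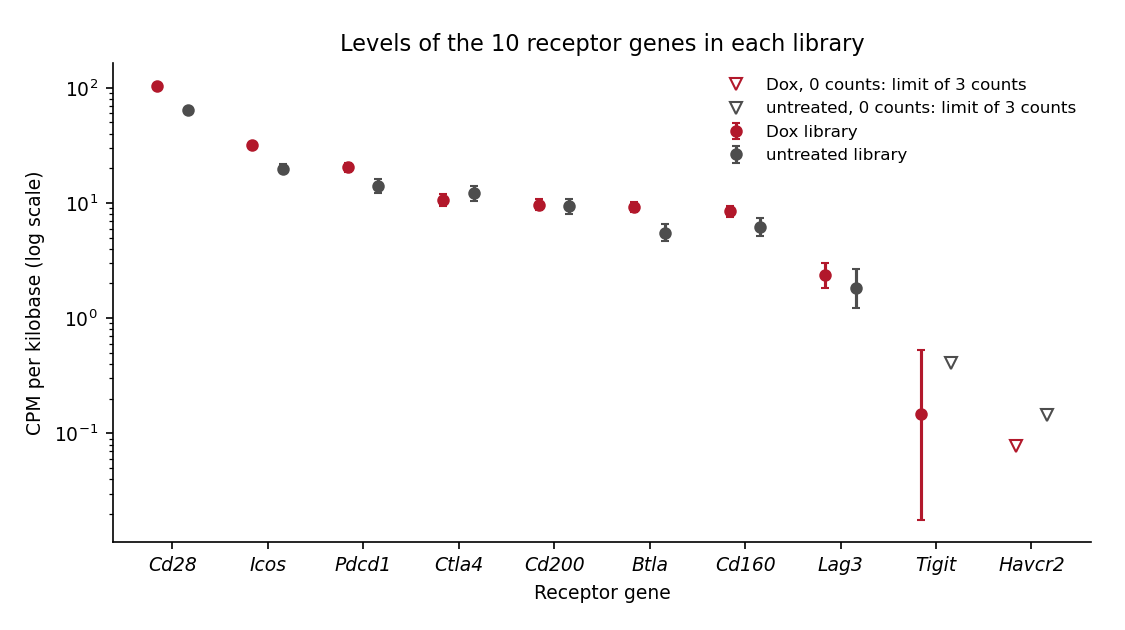
Level of each receptor gene in CPM per kilobase of gene length (log axis), in the Dox library (red) and the untreated library (grey), with 95% counting intervals, and open triangles for the limit that a count of 0 allows. Cd28 stands highest, at 104 CPM per kilobase with Dox and 64.2 without, and Havcr2 has 0 counts in both libraries.

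Several of these receptors stood moderately higher with Dox. None of the 7 with at least 5 CPM in the higher of the 2 libraries differed by as much as 2-fold. Lag3, Tigit and Havcr2 fell short of that minimum. At least 2-fold higher were 0 members, against 2.21% of the 10113 genes past that minimum, and at least 2-fold lower were also 0, against 2.24%. Among so few genes a count of 0 is close to those shares. Of the 7 members past the minimum, 3 were at least 1.5-fold higher, namely Btla, Cd28 and Icos, against 6.28% of all genes, and 0 were at least 1.5-fold lower, against 6.18%. With the whole counting interval asked to lie past 1.5-fold, 1 remained, Cd28. That rule favours genes with many counts, and its share over all genes was not computed. The remaining 4, Pdcd1, Cd160, Cd200 and Ctla4, lay within 1.5-fold. Over the 8 members whose mean of the 2 libraries reached 1 CPM the median log2 ratio was 0.49, beside 0.01 over 11498 genes. The whole counting interval lay above 0 for 5 of these 8, against 24.8% of all such genes, and below 0 for 0 of them, against 22.3%.

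The costimulatory receptors were the most precisely measured. Cd28 (Entrez Gene 12487, chromosome 1 from 60746388 to 60773359, mm10), the receptor for CD80 and CD86, had 6363 counts with Dox and 2106 without, that is 447 CPM with Dox and 277 CPM without. The log2 ratio was 0.69 (0.62 to 0.76), or 1.61-fold in favour of Dox. Icos (Entrez Gene 54167, chromosome 1 from 60960773 to 61000322), the inducible relative of CD28 known for follicular helper T cells, had 1474 counts with Dox and 489 without, that is 104 CPM with Dox and 64.3 CPM without. It was also 1.61-fold higher, at 0.69 (0.54 to 0.84). Ordered by ratio among the genes past the 5 CPM minimum, Cd28 stood above 95.3% of them and Icos above 95.2%. GENCODE places Gm37039, a provisional gene model, over part of Icos on the same strand, and reads of such overlaps cannot be told apart here.

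Of the measured inhibitory receptors, those whose mean reached 1 CPM, Btla had the largest ratio and Ctla4 the smallest. Btla (Entrez Gene 208154, chromosome 16 from 45223705 to 45252895), a receptor for HVEM, the product of Tnfrsf14, had 425 counts with Dox and 136 without, or 29.9 CPM with Dox and 17.9 CPM without. It was 1.66-fold higher, at 0.73 (0.46 to 1.03). Pdcd1 (Entrez Gene 18566, chromosome 1 from 94038305 to 94052553), the receptor for PD-L1 and PD-L2, had 560 counts with Dox and 207 without, or 39.4 CPM with Dox and 27.2 CPM without. Its ratio was 0.53 (0.30 to 0.77), or 1.44-fold higher, just short of the 1.5-fold mark. Cd160 (Entrez Gene 54215, chromosome 3 from 96798763 to 96829351), a second receptor for HVEM that is anchored to the membrane by a lipid, had 317 counts with Dox and 124 without, or 22.3 CPM with Dox and 16.3 CPM without. Its ratio was 0.45 (0.15 to 0.76). In all 3 genes the Dox library stood higher by more than counting error.

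For Lag3 and Ctla4 the counting interval crossed 0. Lag3 (Entrez Gene 16768, chromosome 6 from 124904359 to 124912434), a relative of CD4 that binds MHC class II, rested on 67 counts with Dox and 28 without, or 4.71 CPM with Dox and 3.68 CPM without. Its ratio of 0.34 (-0.30 to 1.05) allows equal levels as well as a 2-fold difference. Ctla4 (Entrez Gene 12477, chromosome 1 from 60909025 to 60915832), the inhibitory competitor of CD28 for CD80 and CD86, had 290 counts with Dox and 178 without, or 20.4 CPM with Dox and 23.4 CPM without. It was the one measured member with a ratio under 0, at -0.20 (-0.47 to 0.08), an interval that includes equal levels.

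Cd200 (Entrez Gene 17470, chromosome 16 from 45382111 to 45409060) had 322 counts with Dox and 167 without, or 22.6 CPM with Dox and 22.0 CPM without. Its ratio of 0.04 (-0.23 to 0.32) lay close to the median of all genes. Its sign changed with the processing, over a range from -0.01 to 0.04.

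Tigit and Havcr2 were not detectable or nearly so. Tigit (Entrez Gene 100043314, chromosome 16 from 43626137 to 43665125), an inhibitory receptor for CD155, had 2 counts with Dox and 0 without. Havcr2 (Entrez Gene 171285, chromosome 11 from 46454931 to 46481255), known from exhausted T cells and myeloid cells, had 0 counts in both libraries. A count of 0 allows up to 0.211 CPM with Dox and 0.395 CPM without, and no fold is given for either gene. GENCODE places Zbtb20 across Tigit on the opposite strand, and whether the counting used strand is not known here.

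**Figure D2:**
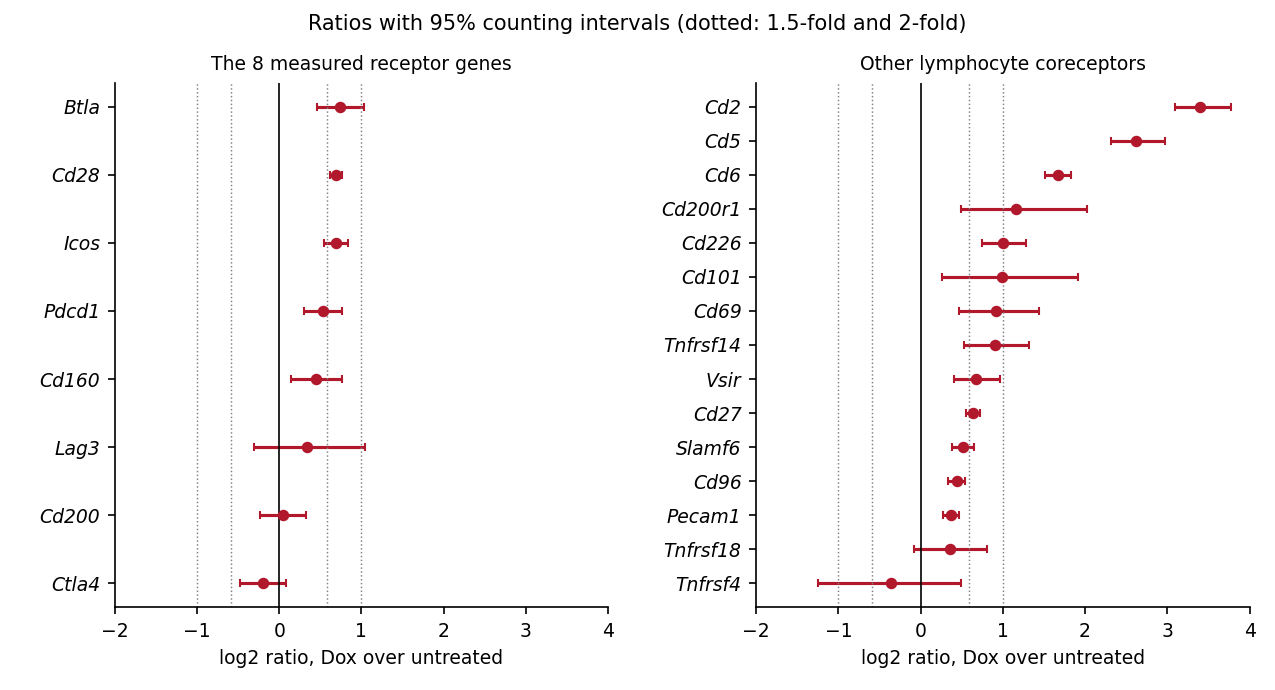
Log2 ratio of Dox over untreated with 95% counting intervals, for the 8 measured receptor genes (left) and for 15 other lymphocyte coreceptors (right), with dotted lines at 1.5-fold and 2-fold. Btla, Cd28 and Icos lie between the 1.5-fold and 2-fold lines, the intervals of Lag3, Ctla4 and Cd200 cross 0, and Cd2 and Cd5 lie far to the right.

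**Figure D3:**
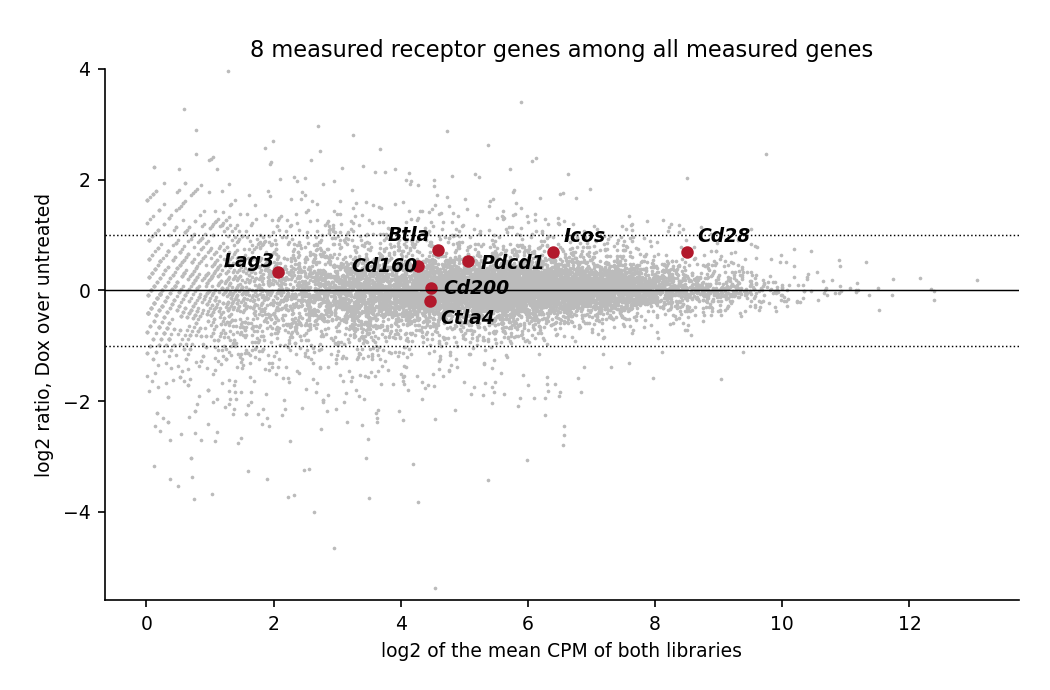
Log2 ratio of Dox over untreated against log2 of the mean CPM for the 11498 genes whose mean reached 1 CPM (grey points), with the 8 measured receptor genes in red and dotted lines at 2-fold. All 8 lie inside the 2-fold lines, Cd28 farthest to the right at a ratio of 0.69, and Ctla4 and Cd200 lie near 0.

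Cd28, Ctla4 and Icos lie next to each other on chromosome 1, all on the plus strand, and their ratios were compared within each library, where the scaling cancels. There were 5.08 Icos counts for each Ctla4 count with Dox and 2.75 without. The odds ratio was 1.85 (1.49 to 2.30, exact conditional interval for counting error). For Cd28 against Ctla4 the figures were 21.9 with Dox and 11.8 without, an odds ratio of 1.85 (1.52 to 2.26). The proportion of Cd28 to Icos differed by less than counting error, 4.32 with Dox and 4.31 without, at 1.002 (0.893 to 1.12). The middle gene of the cluster thus stood apart from both of its flanking members by more than counting error.

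Measured genes beyond the cluster did not share the ratio of Cd28 and Icos. Raph1, the protein-coding gene before Cd28, had 543 counts with Dox and 281 without and a ratio of 0.05 (-0.16 to 0.26). Abi2, the next one out, had 552 counts with Dox and 421 without and a ratio of -0.51 (-0.70 to -0.33). Pard3b and Nrp2, on the far side of Icos, had 0 counts in both libraries. They are distant, beginning 892 and 1957 kb from the start of Cd28, while Icos ends at 254 kb. Abi2 and Raph1 are known for the actin cytoskeleton, not for lymphocyte signalling.

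Btla and Cd200 are likewise neighbours, on chromosome 16, and differed from each other. There were 1.32 Btla counts for each Cd200 count with Dox and 0.814 without, an odds ratio of 1.62 (1.23 to 2.14). Atg3, an autophagy gene before Btla, stood at 0.13 (-0.04 to 0.30) and Slc35a5 at 0.28 (-0.06 to 0.64), with 861 and 228 Dox counts against 420 and 100 untreated counts. Gm609 and Gm17783, after Cd200, had 0 counts in both libraries.

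**Figure D4:**
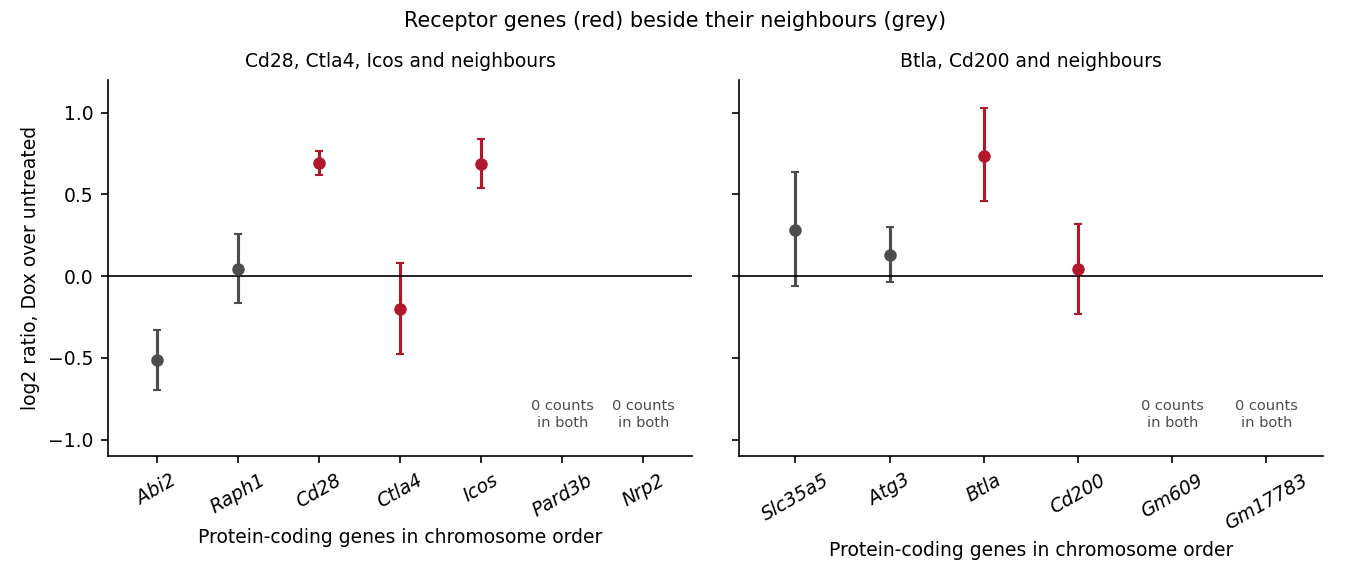
Log2 ratio of Dox over untreated with 95% counting intervals for protein-coding genes in chromosome order, for Cd28, Ctla4 and Icos (left) and Btla and Cd200 (right), receptor genes in red and their neighbours in grey. Ctla4 at -0.20 sits between Cd28 and Icos, both at 0.69.

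The remaining measured members have mixed neighbours. Lag3 lies beside Cd4, which stood at 0.83 (0.67 to 0.99) with 1351 counts with Dox and 406 without. The proportion of Lag3 to Cd4 counts was 0.0496 with Dox and 0.0690 without, an odds ratio of 0.719 (0.449 to 1.18), so that a difference between them was not detectable at this depth. Ptms, on the other side of Lag3, stood at 0.14 (-0.08 to 0.35). The next gene out, Mlf2, stood at 0.04 (-0.05 to 0.12), and Gpr162, beyond Cd4, at 0.14 (-0.51 to 0.82). On one side of Pdcd1, Neu4 and Gal3st2c had 0 counts in both libraries. On the other, Fam174a stood at 0.20 (-0.19 to 0.61) and St8sia4, the next gene out, at 0.90 (0.74 to 1.07), with 1362 counts with Dox and 390 without, a larger ratio than that of Pdcd1. Fam174a and St8sia4 are far from Pdcd1, beginning 1275 and 1549 kb from its lower coordinate. Beside Cd160, Rnf115 stood at 0.28 (0.14 to 0.41), while Pdzk1, which in GENCODE overlaps Cd160 on the opposite strand, stood at -0.59 (-1.01 to -0.20) from 117 counts with Dox and 95 without. The second genes out were Polr3c at 0.32 (0.16 to 0.48) and Gpr89 at -0.08 (-0.30 to 0.14).

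Binding partners of the receptors were also transcribed in the sorted cells, but unevenly. Of 16 listed partners, 8 had at least 1 CPM, and their median log2 ratio was 0.59. Of the 7 past 5 CPM, 1 was higher by 2-fold or more and 0 lower by as much. Among all genes past that minimum the shares were 2.21% and 2.24%. The partners of CD28, CTLA-4 and ICOS were nearly absent, with Cd80 at 5 counts with Dox and 2 without, Cd86 at 2 counts with Dox and 1 without, and Icosl at 10 counts with Dox and 5 without. By contrast, Tnfrsf14, whose product HVEM binds BTLA and CD160, had 248 counts with Dox and 70 without and a ratio of 0.91 (0.53 to 1.32). Receptor and partner of that pair therefore both stood higher with Dox.

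For the PD-1 pair, Cd274, which encodes PD-L1, stood at 14.3 CPM with Dox and 9.61 CPM without, a ratio of 0.57 (0.19 to 0.98). Pdcd1lg2, which encodes PD-L2, rested on 33 counts with Dox and 11 without. Pvr, which encodes CD155, a partner of TIGIT, stood at 38.0 CPM with Dox and 22.2 CPM without, at 0.77 (0.52 to 1.03), although Tigit itself was next to absent. Cd200r1, the receptor for CD200 and the partner past 2-fold, stood at 1.17 (0.49 to 2.02) from 83 counts with Dox and 19 without. Lgals9, which encodes galectin-9, a proposed partner of TIM-3, was the highest of the list per kilobase, at 217 CPM per kilobase with Dox and 154 without, with a ratio of 0.50 (0.42 to 0.57).

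**Figure D5:**
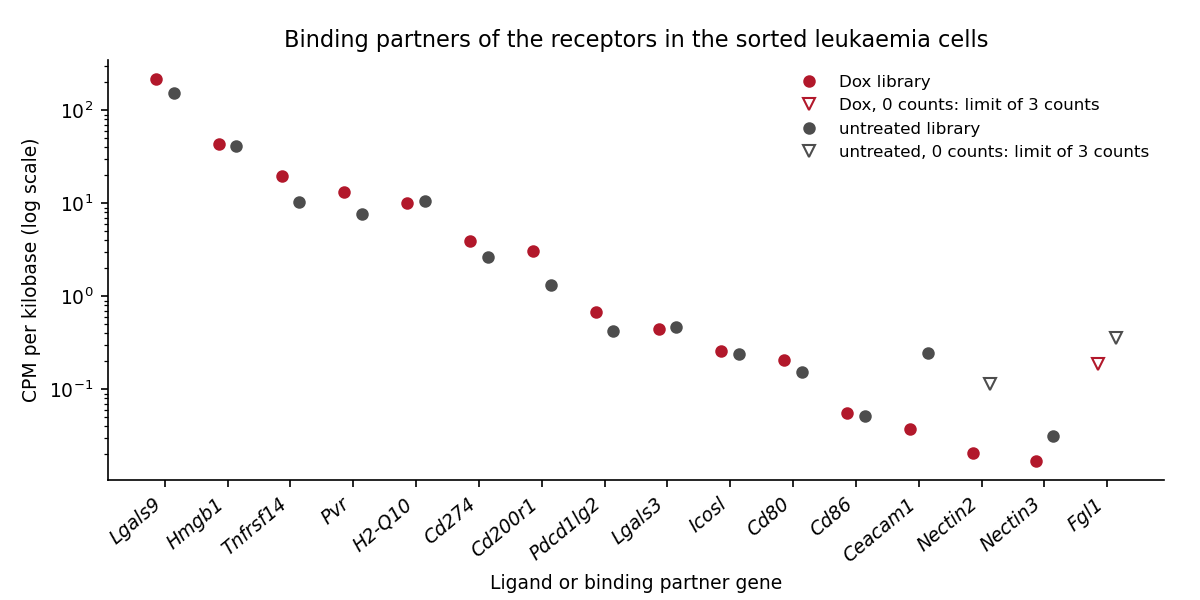
Level of 16 genes for binding partners of the receptors in CPM per kilobase (log axis), in the Dox library (red) and the untreated library (grey), with open triangles for the limit that a count of 0 allows. Lgals9 is highest, at 217 CPM per kilobase with Dox and 154 without, while Cd80, Cd86 and Icosl lie near the lower end.

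Other coreceptors of lymphocytes included larger ratios than any of the 8 measured members. Of 22 listed, 13 were past 5 CPM. Of these, 5 stood higher by 2-fold or more and 0 lower by as much, against 2.21% and 2.24% of all genes. This list, like the others here, was chosen with earlier results of these data known, so its count gives no independent support. Over 15 measured genes the median was 0.91. The 5 were Cd2, Cd5, Cd6, Cd200r1 and Cd226, and with total counts or a prior count of 5 they were 4, since Cd226 fell just short of 2-fold. Cd200r1 and Tnfrsf14 are also on the list of binding partners, so the counts of these lists share genes. Cd226, the activating rival of TIGIT for CD155, stood at 1.004 (0.74 to 1.28), with 547 counts with Dox and 145 without, and was named after its value was seen. Cd2, Cd5 and Cd6, at 3.40 (3.09 to 3.77), 2.62 (2.32 to 2.97) and 1.67 (1.52 to 1.83), exceeded the largest ratio of a measured member, that of Btla, and their intervals did not reach it.

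Genes linked to the signalling or traffic of these receptors were present. All 32 listed genes, mostly for kinases, phosphatases and adaptors, but also Cblb, Bag6, Ap2m1 and Lrba, were past 5 CPM, around a median of 0.26. Higher by 2-fold or more were 3 and lower by as much 0, against 2.21% and 2.24% of all genes. Within 1.5-fold lay 24 of the 32, against 8853 of 10113 genes. Prkcq, the kinase that carries the CD28 signal to NF-kB, stood at 411 CPM with Dox and 185 CPM without, a ratio of 1.15 (1.07 to 1.24). Dgka, which dampens receptor signalling by removing diacylglycerol, stood at 476 CPM with Dox and 220 CPM without, at 1.11 (1.04 to 1.19). Ubash3b, a phosphatase that restrains receptor signalling, had 116 counts with Dox and 14 without, at 2.04 (1.34 to 3.06), and Dok2, an adaptor that restrains it, stood at 0.88 (0.74 to 1.02).

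The phosphatases most tied to PD-1 and BTLA had small ratios. Ptpn6, which encodes SHP-1, stood at 233 CPM with Dox and 194 CPM without, a ratio of 0.26 (0.17 to 0.35), and Ptpn11, which encodes SHP-2, at 252 CPM with Dox and 232 CPM without, a ratio of 0.12 (0.04 to 0.20). Pik3r1, the regulatory subunit of phosphoinositide 3-kinase that binds the tail of CD28, stood at 186 CPM with Dox and 111 CPM without, at 0.75 (0.64 to 0.86). These 3 genes were named after their values were seen.

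Transcription factors with a known link to these receptor genes went in both directions. Of 29 past 5 CPM, 8 stood higher by 2-fold or more and 3 lower by as much, against 2.21% and 2.24% of all genes. The 30 measured genes had a median of 0.25. Nr4a3 and Egr2, early genes of antigen receptor signalling, stood at 2.71 (1.84 to 4.28) and 2.04 (1.38 to 2.98), the first on 7 untreated counts. Notch1 stood at -1.60 (-1.66 to -1.54) and Jun at -2.45 (-2.62 to -2.29). Tox, a factor of T cell exhaustion and of thymocyte development, had 2121 counts with Dox and 722 without, at 0.65 (0.53 to 0.77), and was named after its value was seen.

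Markers of other cells that carry these receptors were set beside the result. None of 10 B cell markers reached 1 CPM, and their summed level was 0.703 CPM with Dox and 0.658 CPM without. Of 10 regulatory T cell markers 7 were measured, around a median of -0.04. Of the 5 past 5 CPM, 2 were lower by 2-fold or more, against 2.24% of all genes, and 0 higher, against 2.21%. The defining factor Foxp3 had 2 counts with Dox and 0 without. The sum of that list was 531 CPM with Dox and 400 CPM without, most of it Ikzf2 at a ratio of 0.78. The 2 lower genes were Il2ra at -5.38 (-6.56 to -4.84) and Nrp1 at -1.66 (-1.92 to -1.43), while Tnfrsf18 stood at 0.35 (-0.08 to 0.81). Of 8 follicular helper markers 4 were past 1 CPM, around a median of 0.71, with a sum of 348 CPM with Dox and 228 CPM without, and 3, among them Il21, had 0 counts in both libraries. Tox2 stood at 1.22, Pou2af1 at 1.06, Sh2d1a at 0.37 and Bcl6 at 0.03. Tox2 and Bcl6 are also on the list of transcription factors.

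Of 10 NK cell markers 3 were measured, around a median of 1.16, and the sum of 1745 CPM with Dox and 1061 CPM without was nearly all Gzma, which at a ratio of 0.72 (0.68 to 0.75) is a granzyme of cytotoxic T cells too, while Ncr1, Klrk1 and Klrd1 had 0 counts in both libraries. The other measured NK markers, both under 5 CPM, were Prf1, which encodes perforin, at 2.19 (0.97 to 4.99) from 35 counts with Dox and 3 without, and Nkg7 at 1.16 (0.22 to 2.51) from 41 counts with Dox and 9 without. Of 12 myeloid and dendritic markers 3 were past 1 CPM, around a median of 0.79, with a sum of 25.3 CPM with Dox and 20.4 CPM without. They were Itgam at 0.79 (0.39 to 1.23), Cd68 at 0.88 (0.26 to 1.61) and Lyz2 at -1.99 (-2.86 to -1.38). Of 8 erythroid markers 4 were past 1 CPM, around a median of 0.09, with a sum of 425 CPM with Dox and 489 CPM without, most of it Tfrc at -0.21, a gene of any dividing cell. The part of the NK, myeloid and follicular helper lists, whose medians stood higher with Dox, in the members' ratios was not tested.

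T lineage markers had a median of 0.23 and a sum of 8181 CPM with Dox and 6822 CPM without. Of the 14, 2 were higher by 2-fold or more and 0 lower by as much, against 2.21% and 2.24% of all genes. Cd3d, Cd3e and Cd3g had ratios from -0.28 to -0.09, whereas Cd247, on the same list, stood at 0.78 (0.70 to 0.85). Cd8b1 stood at 1.27 (1.18 to 1.36), Cd8a at 0.80 (0.75 to 0.85) and Trac at 1.05 (0.97 to 1.13). The 5 Ikaros family genes had a median of 0.05. Of them 1, Ikzf1, was higher by 2-fold or more and 0 lower by as much, against 2.21% and 2.24% of all genes. Ikzf2, which is also on the regulatory T cell list, stood at 0.78 (0.71 to 0.85). Ikzf3 stood at -0.13 (-0.21 to -0.05) and Ikzf5 at 0.05 (-0.23 to 0.34).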

How the data were processed

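Messenger RNA was sequenced from leukaemia cells sorted from mouse spleens, with 1 library per group. The authors' deposited tables hold counts, whole numbers of reads per gene without normalization, beside a gene length in bases. Per the submitters' processing notes, CASAVA 1.8.2 and featureCounts were used with build mm10. Not given in the sources used here are the aligner, annotation, strand setting, treatment of shared reads and pooling of mice and runs.

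RefSeq (GRCm38.p6, the assembly behind mm10) gave symbols for 25275 of 27179 genes. Scaling used edgeR 4.0.16 (R 4.3.3), by its TMM method, with factors of 0.984 for Dox and 1.02 for untreated. Log2 ratios carry a prior count of 2, in proportion to library size, which pulls low genes towards 0, and folds are these ratios on the linear scale. Intervals (Clopper-Pearson, 95%) are exact, leave out the prior count and, like the limit of 3 counts behind a 0, cover counting error only. The 2-fold rule and the coverage of the intervals were tested on simulated data, and the limit behind a 0 was not. The simulated counts carried counting error only, so spread between mice or libraries was not tested.

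Members and the 12 further lists were chosen with earlier results of these data known, and so give no independent support. Some genes are on several of the further lists, so their counts are not separate. List medians use genes whose mean reached 1 CPM, and counts past a fold use those with 5 CPM or more in the higher library. Named were all members, up to 2 protein-coding neighbours on each side of the measured ones, Ikzf1 and, from each list, up to 4 genes of largest absolute ratio past 5 CPM. The few others were picked once their values were known. Protein sequence was not used here. Alternatives were size factors of DESeq2 1.42.0, total counts, prior counts of 0.5 and 5, other CPM minimums and the interval bound, and, chosen after seeing the data, thinned Dox counts and a correction for gene length. The remaining steps used Python 3.11.15 with scipy 1.17.1.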

Additional observations from a re-analysis of the deposited data

How the results depend on the processing

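All 48 ratios of the 8 measured members under 6 alternatives stayed within their own counting intervals. Ranges were 0.64 to 0.69 for Cd28, 0.64 to 0.72 for Icos, 0.69 to 0.87 for Btla, 0.48 to 0.54 for Pdcd1, 0.40 to 0.45 for Cd160 and -0.26 to -0.20 for Ctla4, and Cd200 went from -0.01 to 0.04. The median of the members was 0.44 to 0.53. Under none of the alternatives run did a member differ by 2-fold with the minimum of 5 CPM. Without a minimum none did either, but that count was run with the prior count of 2 only. Tigit, with 0 untreated counts, has a ratio that depends on that prior. At least 1.5-fold higher were 3 members, except without a filter on low counts, where Tigit with its 2 Dox counts made 4. With the interval bound nearest to 0 past 1.5-fold, 1 remained, Cd28, because the other intervals are wider. The share of all genes past that bound was not computed. Of 144 recomputed 2-fold counts of the other lists 2 changed, both by the loss of Cd226. Of 77 recomputed medians 8 moved by over 1.5 times, 1 of them across 0. That was the erythroid median, -0.21 with the 5 CPM minimum and 0.37 with thinned counts, beside 0.09 as reported. The NK median was 0.72 with the 5 CPM minimum, and the other 5 concerned medians under 0.1 in size. Total counts shifted the median of all genes by -0.05 and DESeq2 size factors by -0.004. No paired analysis was possible because each group has 1 library, and for the same reason no library could be left out. Depth limits Lag3, Tigit and Havcr2 most.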
